A study of Mus musculus with 12 samples.

Results

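The genes described here are the 54 nuclear protein-coding genes for the subunits of respiratory complexes III and IV and of ATP synthase, with cytochrome c and the assembly factors Cox10 to Cox20. They were chosen by symbol from the 39179 gene IDs of the deposited count table: symbols that begin with Uqcr, Cox4i, Cox5, Cox6, Cox7, Cox8 or Atp5, those from Cox10 to Cox20, and Cyc1 and Cycs. Of 62 matching symbols, 8 belonged to pseudogenes and were left out. The rule uses symbols alone. The 54 genes comprised 9 of complex III, 1 for cytochrome c, 18 for subunits of complex IV, 9 for assembly factors of complex IV and 17 of ATP synthase.

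The series holds 12 samples, of which the 4 RNA libraries were used, 2 labelled wild type (WT) and 2 labelled LDHA-KO; the other 8, of immunoprecipitated chromatin and its input, were not analysed here. LDHA is lactate dehydrogenase A, which turns pyruvate into lactate, and the series title asks about aerobic glycolysis in the differentiation of Th1 cells, helper cells known for secreting interferon-gamma. All libraries came from primary T cells on the C57BL/6 background: naive CD4 T cells held for 3 days in Th1 conditions, with 5 µg/ml anti-CD3, 2 µg/ml anti-CD28, 10 ng/ml IL-12, 10 µg/ml anti-IL-4 and 100 U/ml IL-2. Both genotypes then received 50 ng/ml PMA, 1 µM ionomycin and GolgiStop, which blocks secretion, for 4 h, so no library shows cells without restimulation. The sources used here do not give how LDHA was removed, in which cells, or the age and number of the mice.

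Complex III takes electrons from ubiquinol and hands them to cytochrome c, complex IV passes them from cytochrome c to oxygen, and both pump protons out of the mitochondrial matrix. ATP synthase lets the protons back in through its membrane part, Fo, and makes ATP in its matrix part, F1; a peripheral stalk holds the parts together. Each complex joins nuclear subunits with a few encoded by mitochondrial DNA, and complex IV needs dedicated assembly factors that insert its haem and copper. Activated T cells run glycolysis and respiration side by side.

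Library totals ranged from 919741 to 1293178 counts, so that 1 count was worth 0.773 to 1.09 CPM, the unit of counts scaled for depth, and the limit set by a count of 0 (3 counts) was 2.32 to 3.26 CPM. Ldha, the targeted gene, fell from 1055 and 1006 counts to 42 and 53 in LDHA-KO (log2 fold change -4.09, SE 0.11, adjusted p 2.19e-30 by edgeR). All 7 T cell markers were detected in each library, with summed levels of 933 and 920 CPM in WT and 817 and 847 CPM in LDHA-KO; Cd4 was called higher (0.51) and Thy1 (-0.56) and Cd2 (-0.94) lower, and their part in the results was not tested. Cd8a and Cd8b1 summed to 1.58 to 7.92 CPM. B cell markers summed to 4.52 to 10.7 CPM. The NK cell, granulocyte and erythroid markers had 0 counts. Of 6 macrophage and dendritic cell markers, Csf1r stood at 329 and 327 CPM in WT and 393 and 407 CPM in LDHA-KO. It was called higher (0.29, adjusted p 0.0050). Cd68 had 5 and 7 counts in WT against 3 and 4 in LDHA-KO, and Itgax had 1 count in LDHA-KO replicate 2. Lyz2, Adgre1 and Fcgr1 had 0 counts in all 4 libraries.

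Among the 39 genes with enough counts to be tested, 10 were higher and 2 lower in LDHA-KO at an adjusted p under 0.05 (edgeR's quasi-likelihood test, Benjamini-Hochberg adjustment over all genes tested). The higher genes were Cyc1 of complex III, the complex IV subunits Cox6c, Cox7a2l and Cox4i1, the complex IV assembly factors Cox20 and Cox10, and the F1 subunits Atp5a1, Atp5b, Atp5c1 and Atp5e. The lower genes were Uqcrfs1 of complex III and the assembly factor Cox15. Over all 9914 genes tested, 31.0% were called, 15.6% higher and 15.4% lower, and the members' share of calls in either direction (30.8%) was near the background. By direction, 25.6% of the tested members were higher and 5.13% lower; no test was made of these shares. Of the 12 calls, those of Cox6c and Cox20 held under every setting tried. With DESeq2, which called 10.6% of 8530 genes (5.93% higher and 4.63% lower), no other member was called. With edgeR scaled by library totals alone, 5 members were higher and 4 lower, where 30.8% of all genes were called, 11.8% higher and 19.0% lower. In bulk RNA, fewer cells of a type and less RNA per cell cannot be told apart.

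The complexes differed in their counts and medians, which are given as descriptions, since members of a complex are not replicates. Complex III had 1 gene higher and 1 lower of 8 tested, with 4 estimates above 0 and 4 below, and a median log2 fold change of 0.0029. That median is the midpoint of Uqcrc2 (-0.16) and Uqcr10 (0.17), with no complex III estimate between them. Complex IV, subunits and assembly factors together, had 5 higher and 1 lower of 18, with 12 estimates above 0 and 6 below, and a median of 0.31. ATP synthase had 4 higher of 13, with 10 estimates above 0 and 3 below, and a median of 0.20; none was called lower, and none had an unadjusted p under 0.05 in that direction. The median over all genes tested was -0.01, and 15.6% of them were called higher and 15.4% lower. With scaling by library totals alone, which shifts all estimates downwards, the medians became -0.08 for complex III, 0.23 for complex IV and 0.11 for ATP synthase.

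**Figure D1:**
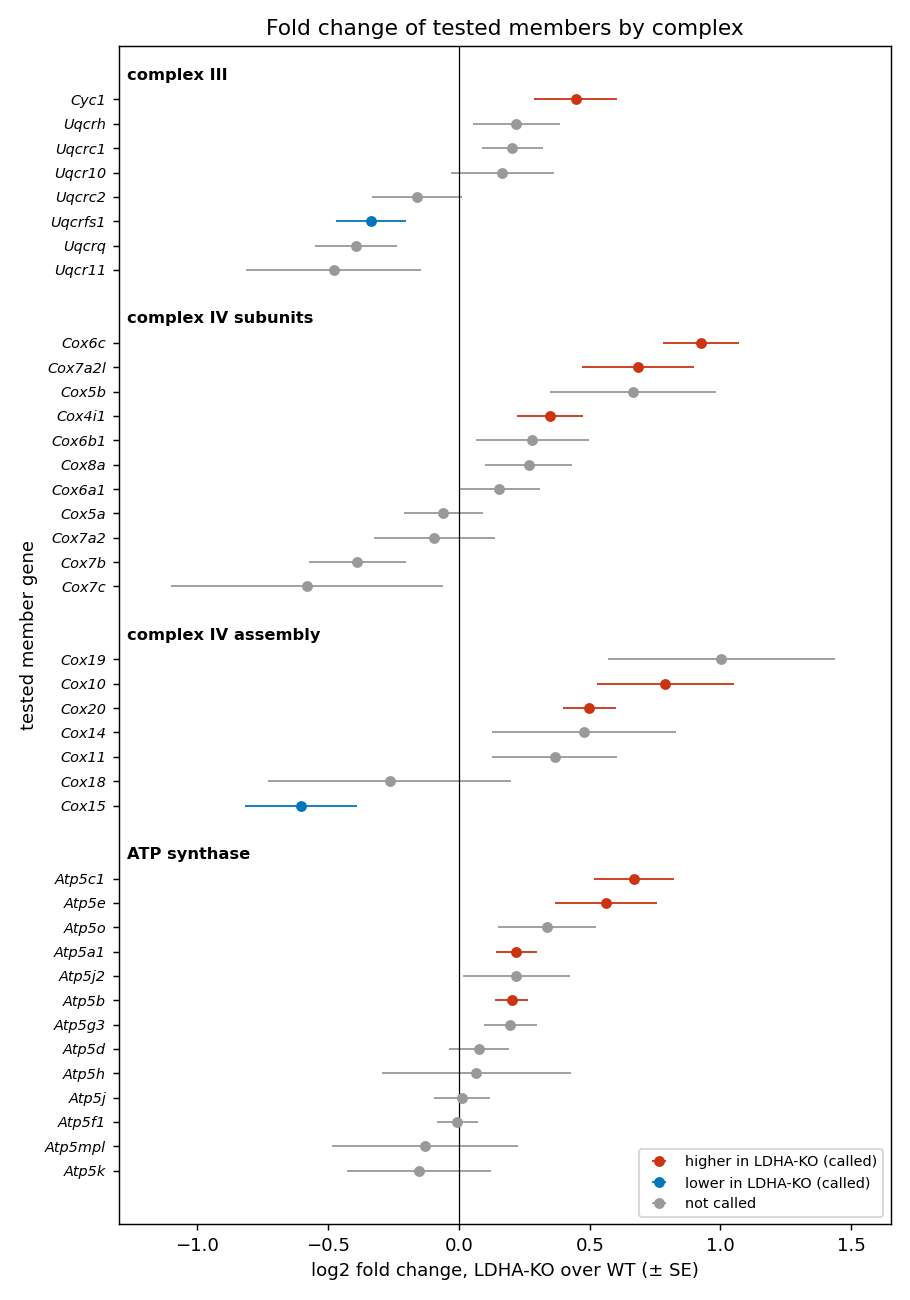
Log2 fold change, LDHA-KO over WT (x axis), of each of the 39 tested genes (y axis), grouped by complex; points are edgeR estimates, bars are ± 1 SE, red marks genes called higher, blue lower and grey not called. Complex III estimates spread from -0.48 to 0.45 on both sides of 0, whereas those of ATP synthase ran from -0.15 to 0.67.

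Without a test of the genes, the libraries of the genotypes did not overlap in CPM for 21 of the 39 members that were higher in LDHA-KO and for 7 that were lower. Over all genes tested, 31.8% were higher and 32.6% lower in this sense, 64.3% in either direction. The 21 comprised 3 of complex III, 7 complex IV subunits, 5 assembly factors and 6 of ATP synthase. The 7 comprised 4 of complex III, 1 complex IV subunit and 2 assembly factors.

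Summed over all members of a complex, the level of complex III was 640 and 611 CPM in WT and 617 and 635 CPM in LDHA-KO, and the genotypes overlapped. The complex IV subunits summed to 591 and 596 CPM in WT and to 729 and 708 CPM in LDHA-KO, a ratio of 1.21. The complex IV assembly factors summed to 313 and 319 CPM against 424 and 395 CPM, a ratio of 1.30. Most of these sums came from Cox20, at 178 and 194 CPM in WT and 277 and 250 CPM in LDHA-KO. Cox20 overlaps Hnrnpu. Of the 7 assembly factors tested, 5 estimates were above 0 and 2 below. Both LDHA-KO libraries lay above both WT libraries for both groups of complex IV genes. ATP synthase summed to 2482 and 2433 CPM in WT and to 2739 and 2773 CPM in LDHA-KO, a ratio of 1.12. Within it, F1 gave 1400 and 1448 CPM in WT against 1637 and 1700 CPM in LDHA-KO, the peripheral stalk gave 769 and 682 CPM against 737 and 742 CPM, and Fo gave 311 and 303 CPM against 365 and 329 CPM. With TMM scaling, only the stalk overlapped between genotypes. With library totals alone, Fo overlapped as well. With 2 libraries against 2, an exact two-sided permutation test cannot go below 0.333, so these sums carry no test. A sum is carried by the genes with the most counts, and longer transcripts give more counts, so sums were compared between genotypes and not between complexes.

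**Figure D2:**
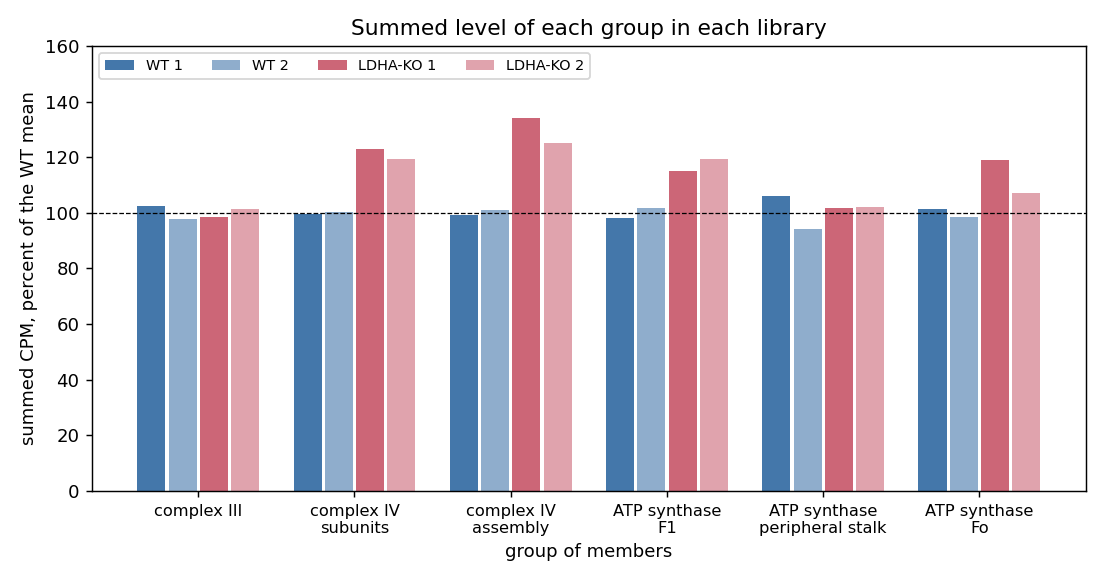
Summed CPM of all members of each group (x axis) in each library, as a percent of that group's WT mean (y axis, from 0; dashed line, 100%); each bar is 1 library, with no error bar. The LDHA-KO bars stand above both WT bars for complex IV subunits, complex IV assembly factors, F1 and Fo, and not for complex III or the peripheral stalk. Most of the assembly factor level came from Cox20, which overlaps Hnrnpu.

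Sequences upstream of the start site were taken for members from RefSeq (GRCm38.p6), the 250 bases before the 1 start site that its promoter table lists per gene, and 41 of 54 members were matched; Atp5a1, Atp5mpl, Uqcrq, Cyc1, Uqcrc2, Uqcrb, Cox18, Cox17, Cox4i1, Cox6c, Cox4i2, Cox6a2 and Cox8c had no entry. Factors of the ETS family, GABP among them, and NRF1 and YY1 are known to bind promoters of respiratory genes. The ETS letters CCGGAAG, on either strand, were in the windows of 10 of the 41 members (24.4%), against 7.05% of 27025 genes and 9.13% of 17492 protein-coding genes. The NRF1 letters (GCGC, any base, then TGCGC, on either strand) were in 4 (9.76%), against 3.86% of all genes and 5.30% of coding genes, and the YY1 letters AAGATGG in 1 (2.44%), against 4.53% and 4.10%. Among called members with a window, 3 of 6 that were higher (Cox10, Cox20 and Atp5e) and 0 of 2 that were lower held the ETS letters; among members tested and not called it was 5 of 23. The windows of those 3 genes and of Cox15, which was lower and had no match, are printed 5′ to 3′ on the gene's strand, with matches in capitals: chr11:64079473-64079722 (minus strand) for Cox10, chr1:178318903-178319152 (plus) for Cox20, chr2:174464102-174464351 (minus) for Atp5e and chr19:43753001-43753250 (minus) for Cox15. The match begins 27 bases before the listed start in Cox10, 103 in Cox20 and 102 in Atp5e, where it reads CTTCCGG in the latter 2, the same letters on the opposite strand. Cox20 also holds the YY1 letters, 75 bases before the listed start. For 9 of the 41 members, Cox20 among them, the listed start lies within the gene span and the window reaches into that span, so distances are from the listed start and not from the outer end of the gene. Atp5b, Atp5c1 and Cox7a2l, also called higher, had windows without a match, and the shares by call were not tested for a difference. A match is a description of letters and no evidence of binding.
Cox10: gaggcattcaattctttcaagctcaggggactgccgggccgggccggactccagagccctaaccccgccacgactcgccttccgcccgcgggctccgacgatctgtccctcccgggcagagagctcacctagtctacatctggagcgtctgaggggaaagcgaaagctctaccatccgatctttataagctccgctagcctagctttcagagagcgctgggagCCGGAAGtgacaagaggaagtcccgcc
Cox20: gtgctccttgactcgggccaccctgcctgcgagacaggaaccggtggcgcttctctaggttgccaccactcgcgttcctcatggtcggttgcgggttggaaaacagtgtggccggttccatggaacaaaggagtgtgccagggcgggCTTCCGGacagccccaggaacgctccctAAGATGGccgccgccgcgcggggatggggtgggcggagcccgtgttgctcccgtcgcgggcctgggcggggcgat
Atp5e: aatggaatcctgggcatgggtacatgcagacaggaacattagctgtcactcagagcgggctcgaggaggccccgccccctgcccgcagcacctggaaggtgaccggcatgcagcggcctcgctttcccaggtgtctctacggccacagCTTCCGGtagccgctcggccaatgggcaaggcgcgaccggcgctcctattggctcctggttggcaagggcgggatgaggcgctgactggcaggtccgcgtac
Cox15: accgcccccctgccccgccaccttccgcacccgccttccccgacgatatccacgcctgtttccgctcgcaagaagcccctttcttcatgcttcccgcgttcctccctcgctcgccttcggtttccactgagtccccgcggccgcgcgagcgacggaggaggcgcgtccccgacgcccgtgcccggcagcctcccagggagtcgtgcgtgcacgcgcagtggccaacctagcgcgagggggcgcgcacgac

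Complex III held genes that moved in opposite directions. Cyc1 (chr15:76343513-76346260) encodes cytochrome c1, the haem subunit that passes electrons to cytochrome c. It stood at 69.6 and 60.1 CPM in WT and at 84.8 and 91.6 CPM in LDHA-KO (log2 fold change 0.45, SE 0.16, adjusted p 0.0285). Both LDHA-KO libraries were higher than both WT libraries. Uqcrfs1 (chr13:30540312-30545316) encodes the Rieske iron-sulfur protein, which takes the electron that goes on to cytochrome c1. It stood at 126 and 120 CPM in WT and at 99.5 and 96.0 CPM in LDHA-KO (-0.34, SE 0.13, adjusted p 0.0496). The libraries did not overlap, but the call held only with library totals and was lost under each of the other 10 alternatives. Cyc1 was not called with library totals (0.36), without the filter on low counts (0.45), without WT replicate 2 (0.35) or without LDHA-KO replicate 2 (0.39).

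Of the other complex III genes, Uqcrq, a small subunit known as the ubiquinone-binding protein QP-C, was at 85.7 and 88.6 CPM in WT and at 66.7 and 66.0 CPM in LDHA-KO. Its libraries did not overlap, and its estimate of -0.39 (SE 0.16) missed the threshold at an adjusted p of 0.0532; with library totals alone it was -0.48 and was called at 0.0187. Uqcrc1, a core protein and the complex III gene with the highest CPM, was at 152 and 138 CPM against 158 and 173 CPM (0.20, SE 0.12, adjusted p 0.183). Uqcr11, a small subunit, had the lowest estimate, with 17.6 and 19.8 CPM against 14.7 and 12.3 CPM (-0.48, SE 0.33, adjusted p 0.294). Uqcrh, Uqcr10 and Uqcrc2 had estimates from -0.16 to 0.22 and were not called. Uqcrb had 16, 8, 6 and 9 counts and was not tested.

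Cycs, the gene of somatic cytochrome c that carries electrons between complexes III and IV, had 1 and 3 counts in WT against 1 and 2 in LDHA-KO. All 4 values are at or below the 3 counts that a count of 0 allows, so no difference was detectable at this depth. RefSeq lists 3 named pseudogenes of Cycs, and the sources used here do not say how reads with several matches were counted.

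Among the complex IV subunits, Cox6c gave the smallest adjusted p of any member. It is a nuclear subunit in the outer shell of the enzyme (chr15:35931976-35938246). It stood at 63.5 and 65.6 CPM in WT and at 128 and 119 CPM in LDHA-KO, a log2 fold change of 0.93 (SE 0.14, adjusted p 2.11e-06). The gap between genotypes was many times the spread within each, and the estimate lay between 0.84 and 0.99 under the 11 alternatives. Cox6c overlaps no other RefSeq gene.

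Cox7a2l (chr17:83501917-83514333) belongs to the subunit 7A family. It was at 29.1 and 33.2 CPM in WT and at 55.4 and 45.8 CPM in LDHA-KO (0.68, SE 0.21, adjusted p 0.0123). All values of LDHA-KO were above those of WT. Its call was lost without WT replicate 1 (0.59) or LDHA-KO replicate 1 (0.57). Cox4i1 (chr8:120668225-120674209), the widely expressed form of a large nuclear subunit and the complex IV subunit with the highest CPM, was at 106 and 119 CPM against 140 and 145 CPM (0.35, SE 0.13, adjusted p 0.0311). Its call was lost with library totals (0.26), without the filter (0.35), and without WT replicate 1 (0.27), LDHA-KO replicate 1 (0.38) or LDHA-KO replicate 2 (0.33).

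The other subunits tested were not called. Cox5a, which sits on the matrix side, was at 92.6 and 81.4 CPM in WT and at 79.1 and 87.2 CPM in LDHA-KO (-0.06, 95% interval -0.35 to 0.24), and the genotypes overlapped. Cox6a1 was at 72.7 and 75.9 CPM against 88.2 and 78.4 CPM (0.16, interval -0.15 to 0.46). Cox5b, a zinc-binding subunit, was at 14.5 and 13.4 CPM against 26.0 and 19.4 CPM, and its estimate of 0.67 (SE 0.32) had an adjusted p of 0.107. Cox7c had 10 and 13 counts in WT against 2 and 10 in LDHA-KO, and its estimate of -0.58 (SE 0.52, adjusted p 0.426) carried the widest error of any tested member. Cox7b was at 63.5 and 60.9 CPM against 46.4 and 48.4 CPM (-0.39, adjusted p 0.11), without overlap; with library totals it was called lower (-0.47, adjusted p 0.0490). Cox6b1 and Cox8a had estimates of 0.28 and 0.27, and Cox7a2 of -0.09.

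Several complex IV subunits have tissue-restricted forms, and in these T cells the counts lay with the widely expressed form of each set. Cox4i2, the form known from lung, had 3 and 3 counts in WT against 2 and 7 in LDHA-KO, where Cox4i1 had 139, 150, 124 and 165. Cox6a2, a muscle form, had 0 counts in each library, and Cox6a1 had 78 to 96. Cox6b2, a testis form, had 0 and 0 counts in WT against 1 and 3 in LDHA-KO, against 40 to 47 for Cox6b1. Cox7a1, the form of heart and muscle, had 6 and 5 counts in WT against 1 and 3 in LDHA-KO, against 27 to 45 for Cox7a2. Cox8b had 0 and 1 counts in WT against 1 and 0 in LDHA-KO, Cox8c had none, and Cox8a had 73 to 87. Cox7b2 had 0 counts in each library. None of these low forms passed the filter, so no change between genotypes was tested for them.

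Among the assembly factors of complex IV, Cox20, a chaperone of the mitochondrially made subunit COX2, stood at 178 and 194 CPM in WT and at 277 and 250 CPM in LDHA-KO (0.50, SE 0.10, adjusted p 0.000122). The genotypes did not overlap. The gene (chr1:178318095-178322693) overlaps Hnrnpu, and without a stated strand setting reads of both cannot be told apart. Cox10 (chr11:63962627-64079472) makes haem O, the first step from haem B to the haem A of complex IV. It was at 19.9 and 19.0 CPM in WT and at 37.3 and 30.8 CPM in LDHA-KO (0.79, SE 0.26, adjusted p 0.0186), from 24 to 35 counts a library. Its call was lost without WT replicate 1 (0.82), WT replicate 2 (0.75) or LDHA-KO replicate 1 (0.67).

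Cox15 (chr19:43733254-43753000) takes the next step, from haem O to haem A, and its estimate had the opposite sign. It was at 48.2 and 46.7 CPM in WT and at 31.7 and 30.8 CPM in LDHA-KO (-0.60, SE 0.22, adjusted p 0.0288), with little spread within either genotype. Its call was lost without the filter (-0.60) and when any 1 of the 4 libraries was left out (-0.63 to -0.57), and the gene overlaps Entpd7. Cox10 also overlaps 2 other RefSeq entries, 9630013K17Rik and Gm51866.

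Cox19, a factor of the copper pathway, had the largest estimate among the members and was not called: 10 and 7 counts in WT against 14 and 13 in LDHA-KO gave 1.00 (SE 0.43, adjusted p 0.0741). Cox11, which delivers copper, and Cox14 had estimates of 0.37 and 0.48, and Cox18 of -0.26; none was called. Cox16 had 2 to 8 counts and Cox17, a copper chaperone, 4 to 9 counts, and neither was tested.

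**Figure D3:**
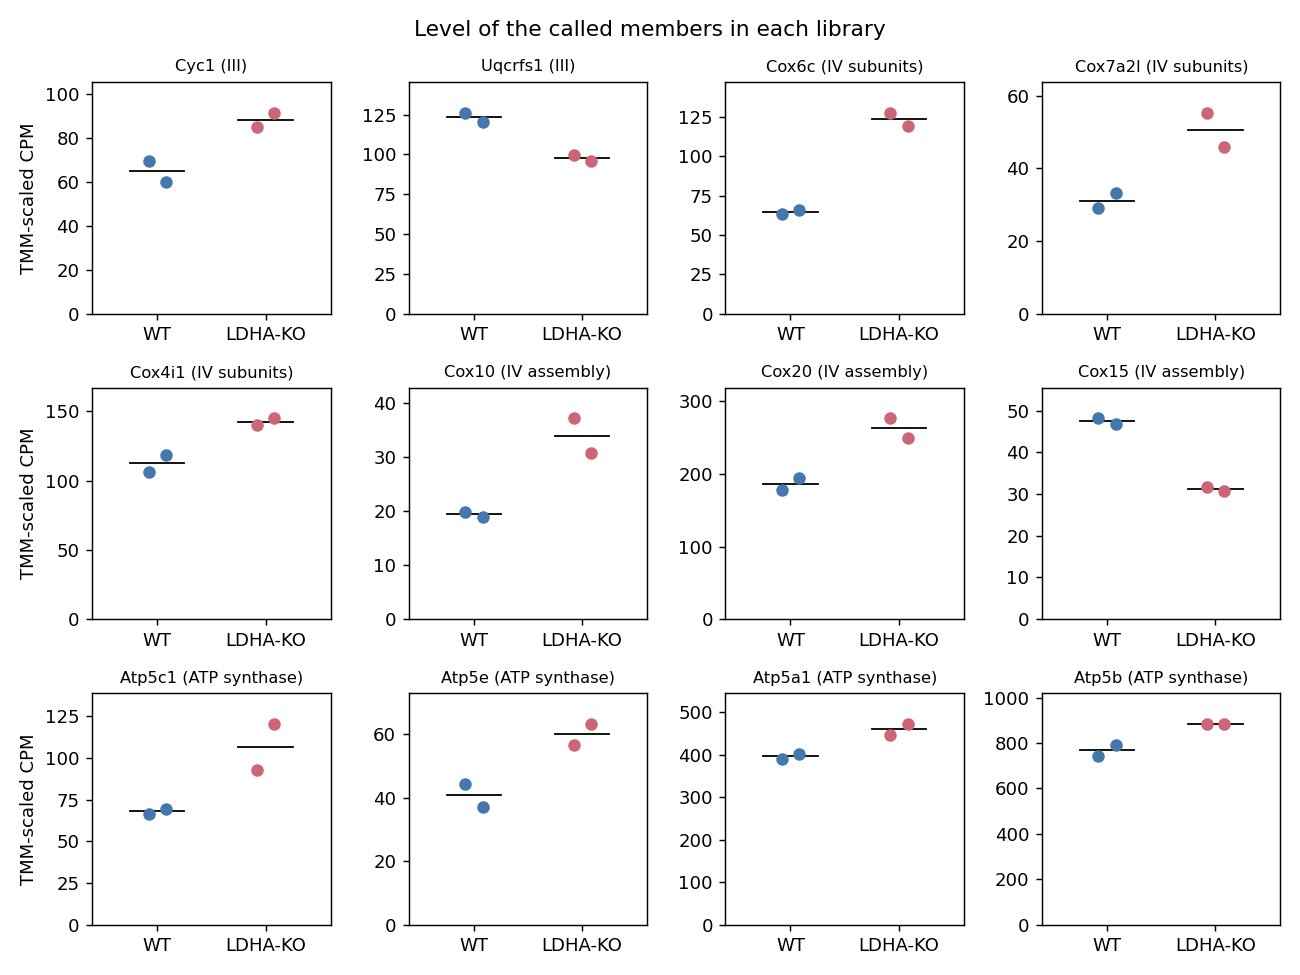
TMM-scaled CPM (y axis, from 0, its own range in each panel) of the 12 called genes in the WT and LDHA-KO libraries; each point is 1 library and the line is the mean of 2. In no panel do the genotypes overlap; Uqcrfs1 and Cox15 are lower in LDHA-KO and the other 10 are higher.

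In ATP synthase, the calls lay in F1, with 4 of its 5 tested genes higher, while 0 of 4 tested genes of the peripheral stalk and 0 of 4 of Fo were called. The shares over all genes tested were 15.6% higher and 15.4% lower. None of the stalk or Fo genes had an unadjusted p under 0.05 in the reported edgeR test on all 4 libraries. DESeq2 called none of the 13 ATP synthase genes. The difference between F1 and the other parts was not tested. Atp5b (chr10:128083307-128090388), the catalytic beta subunit and the member with the highest CPM, was at 745 and 793 CPM in WT and at 886 and 882 CPM in LDHA-KO (0.20, SE 0.06, adjusted p 0.0118). The change is small beside that of Cox6c and was called at this depth of 784 to 1003 counts a library. Its call was lost with library totals (0.12) and without WT replicate 1 (0.16). Atp5b overlaps Mir677 and Snord59a. Atp5a1, the alpha subunit, on chromosome 18 from 77773768 to 77782869, was at 390 and 403 CPM against 448 and 474 CPM (0.22, SE 0.08, adjusted p 0.0251). Its call was lost with library totals (0.14), without the filter (0.22) and without WT replicate 1 (0.20), WT replicate 2 (0.24) or LDHA-KO replicate 2 (0.18), and it overlaps Haus1.

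The remaining F1 genes encode the central stalk. Atp5c1 (chr2:10056030-10080510), the gamma subunit that turns within F1, was at 66.6 and 69.6 CPM in WT and at 92.7 and 121 CPM in LDHA-KO (0.67, SE 0.15, adjusted p 0.000704). Both LDHA-KO libraries were above WT, but they stood apart from each other, and without LDHA-KO replicate 2 the estimate was 0.45 and not called. Atp5c1 overlaps Gm23608. Atp5e (chr2:174461075-174464101), the epsilon subunit, was at 44.4 and 37.2 CPM against 56.5 and 63.4 CPM (0.56, SE 0.19, adjusted p 0.0233), and lost its call with library totals (0.48) and without WT replicate 2 (0.44) or LDHA-KO replicate 2 (0.48). Atp5d, the delta subunit, was at 153 and 146 CPM against 154 and 160 CPM (0.08, SE 0.11, adjusted p 0.664), an estimate whose sign turned with library totals (-0.01).

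In the peripheral stalk, Atp5f1, the b subunit, was at 481 and 428 CPM in WT and at 432 and 471 CPM in LDHA-KO, and the genotypes overlapped. Its estimate of -0.01 had a 95% interval from -0.16 to 0.15, which leaves out a change as large as that of Atp5c1. Atp5o, the subunit that confers sensitivity to oligomycin, was at 45.9 and 50.6 CPM against 67.8 and 55.5 CPM (0.34, SE 0.19, adjusted p 0.176). Atp5j and Atp5h had estimates of 0.01 and 0.07, both of which turned negative with library totals (-0.07 and -0.02).

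In Fo, the proton-carrying ring is built from subunit c, which 3 genes encode as the same mature protein. Atp5g3 carried nearly all of its counts, with 299 and 258 in WT against 242 and 258 in LDHA-KO, or 229 and 204 CPM against 274 and 227 CPM (0.20, SE 0.10, adjusted p 0.142). Without LDHA-KO replicate 2 it was called, at an adjusted p of 0.0408. Atp5g1 had 9 and 6 counts in WT against 6 and 10 in LDHA-KO, and Atp5g2 had 0 in each library. Atp5j2, Atp5k and Atp5mpl, small membrane subunits, had estimates from -0.15 to 0.22 and were not called. Atp5l had 2 to 4 counts, and Atp5s, the coupling factor B gene, 0 to 3; neither was tested.

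In total 15 of the 54 genes were not tested, and 4 of these (Atp5g2, Cox6a2, Cox7b2 and Cox8c) had 0 counts in every library. Of the 39 tested, 24 overlapped no other RefSeq gene, of which 5 were called higher and 1 lower; among the 15 that overlapped another gene, 5 were higher and 1 lower. Usmg5, which RefSeq lists as an ATP synthase gene under another symbol, had 12, 3, 5 and 7 counts and lay outside the choice by symbol.

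**Figure D4:**
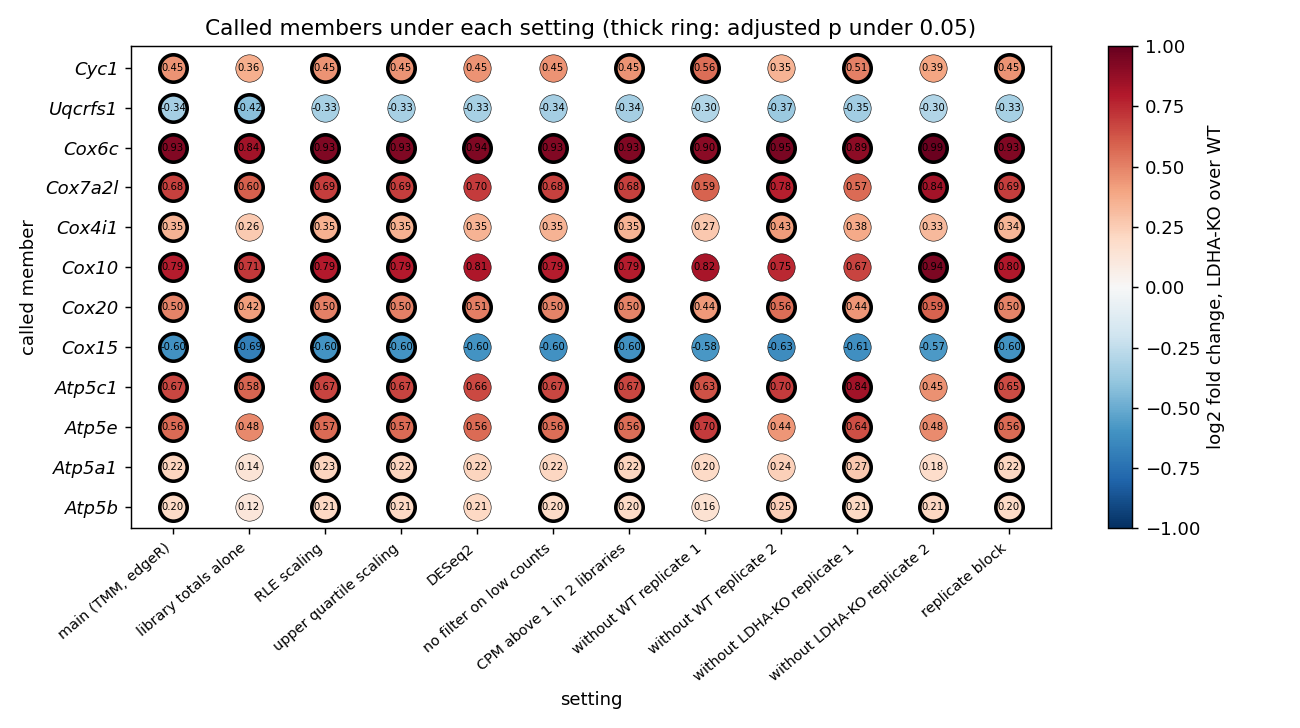
Log2 fold change (colour and printed value) of the 12 called genes (y axis) under the reported test and 11 other settings (x axis); a thick ring marks an adjusted p under 0.05. No gene changes sign across the settings, and Cox6c and Cox20 keep the thick ring in each column.

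The mitochondrially encoded partners of these complexes were measured unevenly. mt-Co1, the catalytic subunit of complex IV, was at 227 and 236 CPM in WT and at 434 and 441 CPM in LDHA-KO (0.92, SE 0.08, adjusted p 9.2e-12). mt-Cytb, cytochrome b of complex III, was at 152 and 168 CPM against 237 and 270 CPM (0.68, SE 0.10, adjusted p 1.59e-06). Both were higher in LDHA-KO under all 11 alternatives. mt-Co2, mt-Co3 and mt-Atp8 had 0 counts in all 4 libraries and mt-Atp6 had 1 count in LDHA-KO replicate 1, so 2 of 6 partners were tested. The nuclear partners of mt-Cytb had a median of 0.0029 and those of mt-Co1, the complex IV subunits, of 0.27; the difference between mitochondrial and nuclear genes was not tested.

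The carriers that feed ATP synthase were higher. Slc25a3, which imports phosphate, was at 249 and 216 CPM in WT and at 352 and 371 CPM in LDHA-KO (0.64, SE 0.09, adjusted p 3.44e-07). The adenine nucleotide carriers Slc25a4 and Slc25a5, which exchange ATP for ADP, were at 155 and 147 CPM against 245 and 249 CPM (0.71, adjusted p 4.8e-07) and at 174 and 218 CPM against 272 and 289 CPM (0.52, adjusted p 8.47e-05). All 3 were called under all 11 alternatives. With the assembly factors of ATP synthase, 4 of 6 tested genes of this list were higher and none lower, with a median of 0.64. Over all genes tested, the shares were 15.6% higher and 15.4% lower. None of the list had an unadjusted p under 0.05 in the lower direction in edgeR, and DESeq2 called 3 higher and none lower. The fourth was Tmem242, with 9 and 16 counts in WT against 26 and 23 in LDHA-KO (1.31, SE 0.35, adjusted p 0.00332), whose call was lost without WT replicate 1 or LDHA-KO replicate 1.

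Assembly factors of complex III outside the symbol rule had 1 of 5 tested genes lower and none higher, with a median of -0.29. This share of 20.0%, from 1 gene, stands beside 15.4% lower over all genes tested. None was higher at an unadjusted p under 0.05 in edgeR, and DESeq2 called none. Ttc19, which clears fragments of the Rieske protein after its assembly, was at 88.0 and 84.6 CPM in WT and at 53.1 and 66.0 CPM in LDHA-KO (-0.52, SE 0.16, adjusted p 0.0141), and lost its call without WT replicate 1 or LDHA-KO replicate 1. Bcs1l, which inserts the Rieske protein, had 18 and 11 counts against 6 and 7 (-0.80, adjusted p 0.196).

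Of the further biogenesis factors of complex IV, 2 of 18 tested were higher (11.1%, against 15.6% of all genes tested). Their median was 0.19. None was lower at an unadjusted p under 0.05, and DESeq2 called none. Slirp, which stabilises mitochondrial messenger RNA with Lrpprc, was at 1099 and 1069 CPM in WT and at 1172 and 1301 CPM in LDHA-KO (0.19, SE 0.06, adjusted p 0.0107), a call lost with library totals and without WT replicate 2 or LDHA-KO replicate 2. Sco1, a copper chaperone of COX2, was at 33.7 and 29.3 CPM against 49.7 and 43.1 CPM (0.55, SE 0.22, adjusted p 0.0499) and was called under 2 of the 11 alternatives. Coa3 had 14 and 5 counts in WT against 5 and 26 in LDHA-KO, so that its estimate of 1.04 (adjusted p 0.088) rested on LDHA-KO replicate 2.

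For comparison, nuclear complex I subunits had 2 of 33 tested genes higher (6.06%, against 15.6% of all genes tested) and none lower. Their median was 0.17. None was lower at an unadjusted p under 0.05 in edgeR, and DESeq2 called none. The 2 were Ndufs8 (0.55, adjusted p 0.0322) and Ndufa10 (0.38, adjusted p 0.0498), called under 5 and 4 of the 11 alternatives; both calls were lost with library totals, without the filter and with CPM above 1, Ndufs8 also without WT replicate 2 or LDHA-KO replicate 1, and Ndufa10 also without WT replicate 1 or LDHA-KO replicate 2 and with the replicate block. Complex II had 2 of 6 higher (33.3%, against 15.6% of all genes tested) and none lower, with a median of 0.17. Only Sdhaf1, an assembly factor, was lower at an unadjusted p under 0.05 (-0.87, adjusted p 0.068), and DESeq2 called none. The complex II flavoprotein gene Sdha was at 95.6 and 102 CPM in WT and at 151 and 133 CPM in LDHA-KO (0.52, SE 0.13, adjusted p 0.00198), and its membrane anchor gene Sdhd had an estimate of 0.68 (adjusted p 0.0206), lost without WT replicate 1, WT replicate 2 or LDHA-KO replicate 2.

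Among nuclear regulators of respiratory genes, 1 of 10 tested was higher (10.0%, against 15.6% of all genes tested) and none lower. Their median was 0.09. None was lower at an unadjusted p under 0.05 in edgeR, and DESeq2 called none. Nrf1, whose product binds the NRF1 letters given above, was at 51.3 and 48.2 CPM in WT and at 69.0 and 67.8 CPM in LDHA-KO (0.46, SE 0.18, adjusted p 0.0475), a call that held under 2 of the 11 alternatives. Gabpa, the DNA-binding part of GABP, was at 300.0 and 274 CPM against 328 and 288 CPM, and the genotypes overlapped (0.09, SE 0.09, adjusted p 0.478). The gene overlaps Atp5j in position, so the counts of both are uncertain. Tfam, the packaging and transcription factor of mitochondrial DNA, had an estimate of -0.10. Ppargc1a, a coactivator of respiratory genes, had 1 count in 1 library.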

How the data were processed

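RNA was measured in 4 libraries, 2 per genotype. The authors deposited 1 table of whole-number counts of reads per gene, not normalised. STAR 2.3.0e, HTSeq 0.6.0, Bowtie2 2.2.6, Trimmomatic 0.33 and FastQC 0.11.2 are named, without role or order, in the list given per the submitters' processing notes, with the build mm10. Annotation, strand setting and treatment of reads with several matches: not given in the sources used here. Counts of overlapping or duplicated genes are therefore uncertain. The table columns name genotype and number but no assay, and were taken as RNA libraries because they hold counts per gene. Of 43374 rows, 4195 repeats of 1557 IDs were removed. Library totals were 1293178 and 1245903 in WT and 919741 and 1192304 in LDHA-KO.

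edgeR 4.0.16 in R 4.3.3 (TMM, default filter with minimum count 10 and total 15, quasi-likelihood F-test, genotype only) tested 9914 genes. P-values were Benjamini-Hochberg adjusted over all of them and called under 0.05. Results given without a named alternative come from this edgeR fit. SE values were derived from F, and CPM was scaled by TMM; 95% intervals are estimate ± 1.96 SE. The test was checked on simulated counts. The simulated libraries were independent and their spread beyond counting error was set larger than in these data, so technical replicates were not covered. Alternatives were library totals alone, RLE and upper quartile scaling, DESeq2 1.42.0, no filter, CPM above 1 in 2 libraries, each library left out, and the replicate block. The labels do not tell whether the 2 libraries of a genotype are separate mice or cultures. The p-values therefore reflect library-to-library spread alone, possibly technical. Per gene, the squared difference between libraries of a genotype averaged 1.15 (WT) and 1.22 (LDHA-KO) times that from counting error alone. A spread this small lets small changes be called.

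The members and gene lists were chosen with earlier results of these data known. Values are given for called members, the 4 with the most counts in complex III, complex IV subunits and ATP synthase, Cycs and Cyc1, isoform sets, the 4 largest estimates not called, and Ldha; other genes, named in the lists, were chosen after their values were seen. Symbols came from an Ensembl table, positions and upstream sequence from RefSeq GRCm38.p6. Transcript lengths were not used, so where counts or CPM of different genes stand side by side they also reflect length. The limit for 0 counts covers counting error only.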

Additional observations from a re-analysis of the deposited data

How the results depend on the processing

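No named member reversed its call under the 11 alternatives. Complexes and gene lists have no call, and the medians of complex III and complex II fell below 0 under some alternatives. Calls over all genes (3076) fell to 901 with DESeq2 and ranged from 1973 to 2412 with a library left out, lowest without LDHA-KO replicate 2. Shares of tested genes called were 31.1% with RLE, 31.2% with upper quartile, 15.5% with no filter, 19.5% with CPM above 1, 28.3% with the replicate block and 18.8% to 23.2% with a library left out. Of all calls 50.4% were higher with TMM and 38.3% with library totals. Members called higher (10) were 5 with library totals, 2 with DESeq2 and 5 to 7 with a library left out. Members called lower (2) were 4 with library totals, 1 with RLE, upper quartile, CPM above 1 or the replicate block, and 0 with DESeq2, with no filter and with any library left out; at an unadjusted p under 0.05 these were 0 with DESeq2, 4 with no filter and 0 to 2 with a library left out.

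The complex III median (0.0029) was -0.080 with library totals, 0.0083 with RLE, 0.0077 with upper quartile and with the replicate block, -0.16 with DESeq2, no filter or CPM above 1, and -0.20 to -0.013 with a library left out. Complex IV (0.31) was 0.23 with library totals and 0.25 to 0.35 with a library left out. ATP synthase (0.20) was 0.11, and 0.12 to 0.21. In complex III, Uqcrb entered with DESeq2, no filter or CPM above 1, so 9 genes had an estimate in place of 8. Uqcrb also entered with a library left out, except without WT replicate 1. Log2 ratios of summed levels with library totals were -0.082, 0.23 and 0.083 for complexes III, IV and ATP synthase. List medians with library totals were -0.37 for complex III assembly, 0.11 for complex IV biogenesis, 0.0051 for regulators, 0.71 for mitochondrial partners (0.92 with DESeq2 or no filter) and 0.090 for complex I. With a library left out they ranged from -0.41 to -0.16, 0.0062 to 0.30, 0.045 to 0.14, 0.75 to 0.86 and 0.056 to 0.20 in that order, and from -0.016 to 0.49 for complex II. The causes were not tested.

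The replicate block called 2803 genes, with members 10 higher and 1 lower. Deviations of same-numbered libraries had r = -0.03 across 9914 genes, over 2 pairs only, and the numbers were not used as pairs. With a library left out, the lone library is assumed to vary like the other genotype. The 15 untested members did not pass the filter on low counts, and why their counts were low was not tested.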
